A study of Homo sapiens with 4 samples.

Results

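Integrins are paired receptors, 1 alpha and 1 beta subunit each, that hold a cell to its extracellular matrix. On the inner side of the membrane, talin and kindlin bind the beta tail and switch the receptor on. A layer of kinases, scaffolds and LIM-domain proteins then joins it to actin, and the whole assembly is the focal adhesion. In stratified squamous epithelium the integrin made of ITGA6 and ITGB4 instead anchors basal cells through hemidesmosomes, which tie to keratin. The 34 genes described here comprise 9 alpha subunits, 6 beta subunits and 19 proteins of the focal adhesion, of 18132 genes with a usable probe set in the series. A gene was taken where the platform annotation gave a probe set exactly 1 symbol and that symbol was on the list, and it was represented by its brightest probe set over all arrays. 33 of the 34 genes were found. ITGB6 has no probe set with a single symbol and is not analysed here.

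The cells were SCC-9, an established human tongue squamous carcinoma line. One group was transfected with mimics of the microRNA miR-585-5p (30 nM) and the other with miR-NC, a control small RNA, and total RNA was taken 36 hours later. Each group has 2 arrays (Affymetrix PrimeView, 49395 probe sets), and the comparison asks which transcripts differ when the microRNA is in excess. All values come from 1 cell line. Nothing in the labels ties the arrays of a group to separate cultures, so the p-values rest on a spread between samples that may be technical, and their small number limits the precision.

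A microRNA recognises its targets mainly through its seed, bases 2 to 8 from the 5′ end. The mature strand that the mimic is named for is shown from RefSeq (GRCh38.p14, chr5:169263649-169263670, minus strand), with the seed in capitals. Beneath it is hsa-miR-5682 (chr3:121049684-121049705, plus strand), shown because it is the only other name among 2545 mature microRNAs in that table that shares bases 2 to 7.
hsa-miR-585-5p: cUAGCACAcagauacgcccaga
hsa-miR-5682: gUAGCACCuugcaggauaaggu
No other name in the table had the full seed of miR-585-5p. Transcript sequences were not used here, so the genes below were not searched for sites. No probe set measures the transfected microRNA.

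The arrays resembled each other closely, with correlations across probe sets of 0.998 between the mimic arrays, 0.997 between the miR-NC arrays and 0.978 to 0.982 between groups. Squamous keratins were bright, KRT5 reading 8637 and 8337 on the mimic arrays, against 7049 and 7337 on the miR-NC arrays. Squamous markers did not move together: KRT14, EPCAM and KRT5 rose by 0.97, 0.59 and 0.24 in mimic cells (log2), and SFN fell by 0.42. PTPRC and LYZ of leukocytes and COL3A1, DCN and LUM of fibroblasts read below the brightest of 20 control probe sets with no human target (intensity 16.8) on every array, as did COL1A2 of fibroblasts and CDH5 of endothelium. PDGFRB and COL1A1 of fibroblasts were above it on all 4 arrays, at 34.7 to 40.9 and 18.4 to 26.6. So were CD14 of leukocytes (54.9 to 103) and VWF and KDR of endothelium (40.7 to 45.3 and 36.5 to 74.2). COL1A1 fell by 0.47 in mimic cells and the endothelial receptor KDR by 0.73 (log2, limma adjusted p = 0.0117 and 0.00152). The summed intensity of 4 squamous markers was 18260 to 18978 on the mimic arrays, against 15683 to 16042 on the miR-NC arrays. For 4 leukocyte markers it was 109 to 125 on the mimic arrays, against 81.6 to 86.5 on the miR-NC arrays (CD14 rose by 0.68). For 4 endothelial markers it was 104 to 121 on the mimic arrays, against 142 to 152 on the miR-NC arrays, and for 6 fibroblast markers 90.5 to 94.2 on the mimic arrays, against 97.9 to 102 on the miR-NC arrays. Their part in the results was not tested. Poly(A) spikes (bacterial transcripts put into the RNA ahead of labelling) were 0.35 higher (log2) on the mimic arrays, while hybridization spikes differed by -0.05. Set to the poly(A) spikes, every log2 change below is 0.35 lower and the median gene stands at -0.40 in place of -0.06; the part of that offset in the results was not tested.

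Of the 33 genes, 30 were bright enough to test. Among these, 23 differed between mimic and miR-NC cells at a limma adjusted p under 0.05, where 55.0% of all 14122 genes did. The 8 higher in mimic cells stand against 28.1% of all genes and the 15 lower against 26.9%. Changes of at least 2-fold were found in 5 of the 30, against 8.16% of all genes. Those 5 were PARVA, higher in mimic cells, and ITGA10, ITGB4, ZYX and TNS3, lower there. The arrays of the groups did not overlap for 26 of the 30, against 79.4% of all genes. The median log2 change of the 30 was -0.30, which is 0.24 below the median of all genes tested. That shift depended on which probe sets were used. Averaging all probe sets gave a median of -0.04 over 28 genes tested. Leaving out those marked as possibly cross-hybridizing gave -0.09, with 10 genes higher and 10 lower of 27 tested. SRC, BCAR1 and ILK dropped out there, since all their probe sets are so marked.

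**Figure D1:**
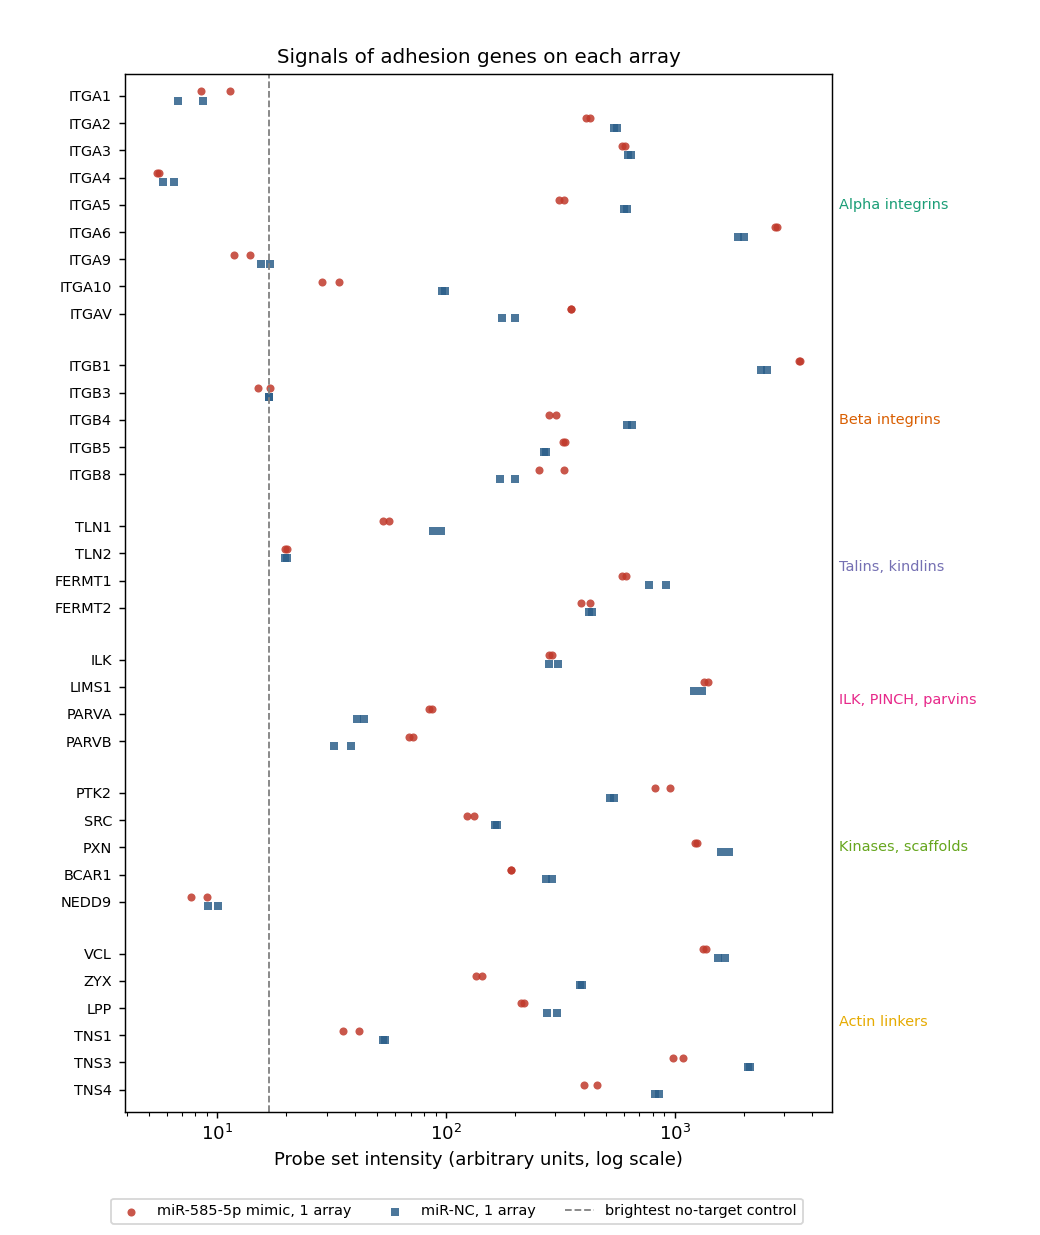
Probe set intensity (log scale) of each gene with a usable probe set, with 1 point per array: circles are the 2 mimic arrays, squares the 2 miR-NC arrays, and the dashed line is the brightest no-target control at 16.8. ITGB1 and ITGA6 are the brightest integrins on their own probe sets, and ITGA1, ITGA4 and NEDD9 lie left of the line on every array.

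ITGA1 and ITGA4, subunits of a collagen receptor and of a VCAM1 and fibronectin receptor, gave no signal above the no-target controls. ITGA1 read 8.43 and 11.3 on the mimic arrays, against 8.67 and 6.73 on the miR-NC arrays, and ITGA4 lay between 5.44 and 6.43 on all 4. Neither was tested. ITGA9, a subunit that binds tenascin-C, exceeded the controls on 1 miR-NC array only and did not pass at -0.34 ± 0.15 (log2 change, SE, limma adjusted p = 0.0833).

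The alpha subunits above background moved in both directions. ITGAV, which pairs with several beta subunits to bind vitronectin and latent TGF-beta, read 353.3 and 353.1 on the mimic arrays, against 175.5 and 200.4 on the miR-NC arrays. The groups were well apart, and ITGAV rose by 0.91 ± 0.08 (log2 change with its SE, 2 arrays per group, limma adjusted p = 4.12e-06). A second ITGAV probe set above the no-target controls on all arrays rose by 0.46, and the remaining ones were below those controls on both miR-NC arrays. ITGA6, the laminin-binding subunit that pairs with ITGB1 or ITGB4, read 2787 and 2736 on the mimic arrays, against 1896 and 2005 on the miR-NC arrays. ITGA6 rose by 0.50 ± 0.05 (limma adjusted p = 5.37e-06), and its other probe sets by 0.69 and 0.87. With the poly(A) spikes ITGA6 was at 0.16 and no longer passed.

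ITGA5, the alpha subunit of the classical fibronectin receptor, went the other way. It read 327.6 and 313.0 on the mimic arrays, against 617.7 and 601.3 on the miR-NC arrays, so that each mimic array was at little over 1/2 of either miR-NC array. The fall was 0.93 ± 0.06 on the log2 scale (SE, limma adjusted p = 5.69e-07), and all 3 other probe sets fell, from -0.88 to -0.60. ITGA10, a collagen-binding subunit best known from cartilage, read 34.0 and 28.7 on the mimic arrays, against 95.5 and 98.7 on the miR-NC arrays. This was the largest change of the 30 genes, -1.64 ± 0.12 (limma adjusted p = 9.18e-07), but its 1 other probe set above background fell by only 0.39, and the mean of all its probe sets by 0.81.

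ITGA2, of the main collagen receptor of keratinocytes, fell less. It read 407.7 and 423.8 on the mimic arrays, against 540.1 and 558.6 on the miR-NC arrays, a change of -0.40 ± 0.06 (limma adjusted p = 2.28e-04). The other ITGA2 probe set stood at -0.23 and did not pass (adjusted p = 0.0737 over all probe sets). ITGA3, a laminin receptor subunit, was at -0.09 ± 0.06 with a 95% interval from -0.21 to 0.04, which holds changes in either direction. With the poly(A) spikes ITGA3 was at -0.43 and passed.

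Of the 5 beta subunits tested, 3 rose and 1 fell, where 28.1% of all genes were higher and 26.9% lower, though with the poly(A) spikes ITGB5 turned to -0.07 and ITGB1 did not pass. ITGB1, the partner of most alpha subunits on this list, read 3524 and 3479 on the mimic arrays, against 2375 and 2525 on the miR-NC arrays. It rose by 0.52 ± 0.04 (log2, SE, limma adjusted p = 3.61e-06), with its 3 other probe sets above background at 0.69 to 0.79, though it was at 0.17 and did not pass with the poly(A) spikes. ITGB8, which pairs with ITGAV and activates latent TGF-beta, read 254.8 and 327.5 on the mimic arrays, against 199.2 and 171.2 on the miR-NC arrays. The mimic arrays were the more spread pair and still lay above both others. The rise was 0.65 ± 0.12 (limma adjusted p = 7.64e-04), and 0.77 to 1.16 on its other probe sets.

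ITGB5, another partner of ITGAV, was the smallest of the rises. Its single probe set read 331.1 and 324.7 on the mimic arrays, against 274.3 and 268.6 on the miR-NC arrays, a change of 0.27 ± 0.07 (limma adjusted p = 0.00540). The direction rests on the scaling, since ITGB5 was at -0.07 with the poly(A) spikes, and it did not pass without mimic replicate 1 (0.26). ITGB3, the beta subunit of the platelet receptor and of a vitronectin receptor, stayed near the no-target controls at 15.1 and 16.9 on the mimic arrays, against 16.8 on both miR-NC arrays, and did not pass.

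ITGB4 fell. This subunit carries a long cytoplasmic tail that binds plectin in the hemidesmosome. It read 302.1 and 283.2 on the mimic arrays, against 649.7 and 616.2 on the miR-NC arrays, well apart. The change was -1.11 ± 0.07 (log2, SE, limma adjusted p = 2.42e-07), and all 7 other ITGB4 probe sets passed in the same direction, between -1.16 and -0.47.

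Some partners within a receptor thus differed in their changes, and others changed alike. ITGA6 changed by 1.62 more than ITGB4 on the log2 scale, and by -0.01 relative to its other partner ITGB1. ITGA5 changed by 1.44 less than ITGB1 (a difference of -1.44), and ITGA2 by 0.92 less (-0.92). ITGAV and ITGB8 differed by 0.27, and their array ratios overlapped between groups. These differences are between brightest probe sets. They compare changes, not levels, and do not depend on a scale factor common to an array. The probe sets used do matter: with all averaged, ITGAV rose by 0.66 and ITGB8 by 0.87, the reverse order. In the same setting ITGA6 (0.69) stayed above ITGB4 (-0.78), and ITGA5 (-0.78) and ITGA2 (-0.32) stayed below ITGB1 (0.54). With 2 arrays per group an exact permutation test of such a difference cannot go below p = 0.333, so no p is given.

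**Figure D2:**
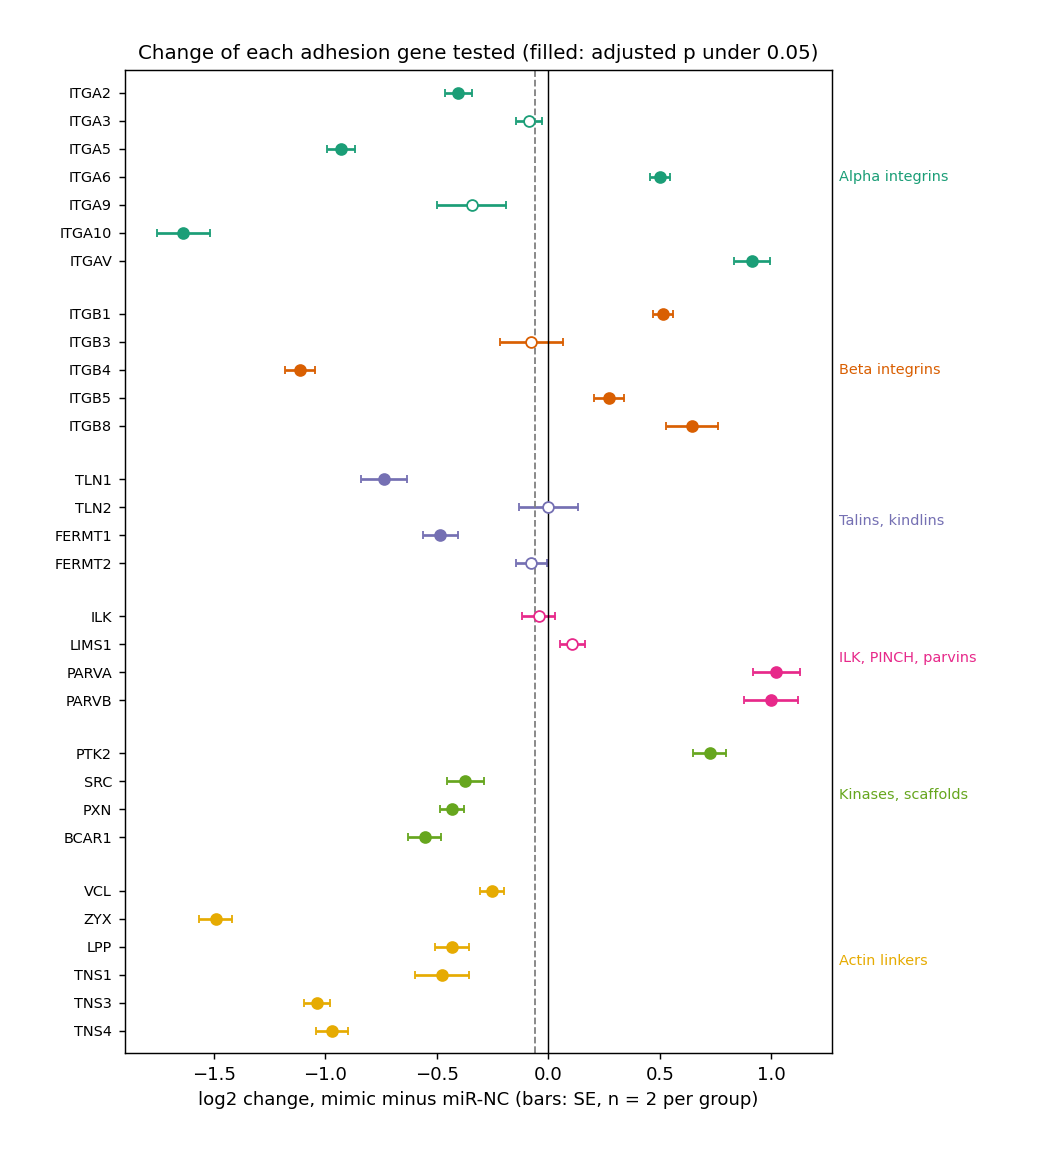
log2 change (mimic minus miR-NC) of each gene tested, grouped by role, with bars for the SE (n = 2 arrays per group) and filled points for a limma adjusted p under 0.05. The dashed line is the median of all genes tested (-0.06); all 6 actin linkers lie left of it, and integrin subunits, kinases and scaffolds lie on both sides.

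Talin is the protein that binds the integrin tail and pulls on actin, and kindlins act beside it. TLN1, the main talin of most cells, read 56.3 and 52.9 on the mimic arrays, against 94.6 and 87.3 on the miR-NC arrays. It fell by 0.74 ± 0.10 (log2, SE, limma adjusted p = 1.25e-04), and its other probe set by 0.86. TLN2, at 19.7 and 20.1 on the mimic arrays, against 20.1 and 19.7 on the miR-NC arrays, barely exceeded the no-target controls, with a 95% interval of its log2 change from -0.29 to 0.30.

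FERMT1 (kindlin-1), the kindlin of epithelial cells, read 612.7 and 587.2 on the mimic arrays, against 768.3 and 914.9 on the miR-NC arrays. The change was -0.48 ± 0.08 (limma adjusted p = 3.56e-04). A second FERMT1 probe set of like brightness, at 561 ± 2.01 in mimic cells and 542 ± 1.91 in miR-NC cells (SD, n = 2), stood at 0.05 and did not pass, so the FERMT1 probe sets disagree. FERMT2 (kindlin-2) was at -0.08 ± 0.07 with an interval from -0.23 to 0.08, and its groups overlapped. Set to the poly(A) spikes, FERMT2 was at -0.42 and passed. Its 3 other probe sets lay between -0.17 and 0.21 and did not pass.

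ILK, LIMS1 (PINCH1) and a parvin form a stable complex of 1 copy each that couples integrin tails to actin, ILK being a pseudokinase. Of these proteins only the parvins passed. PARVA read 86.7 and 84.5 on the mimic arrays, against 43.6 and 40.7 on the miR-NC arrays, a rise of 1.02 ± 0.11 (log2, SE, limma adjusted p = 1.22e-05). PARVB read 69.0 and 71.7 on the mimic arrays, against 38.2 and 32.4 on the miR-NC arrays, a rise of 0.999 ± 0.120 (limma adjusted p = 3.93e-05). Both were near 2-fold higher in mimic cells with no overlap. PARVB has 1 probe set. The other PARVA probe sets were at 0.26 to 0.62, and a second quantile normalization, which made another of them the brightest, gave 0.24 and no call.

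ILK itself overlapped between groups, at 291.9 and 281.2 on the mimic arrays, against 281.5 and 309.1 on the miR-NC arrays, and its log2 change had an interval from -0.21 to 0.12. With the poly(A) spikes ILK was at -0.39 and passed. On the brightest probe sets PARVA changed by 1.07 more than ILK (ILK minus PARVA, -1.07). With all probe sets averaged PARVA was at 0.55 and ILK at -0.04. LIMS1 read 1337 and 1391 on the mimic arrays, against 1215 and 1316 on the miR-NC arrays. At 0.11 ± 0.06 it did not pass (limma adjusted p = 0.118), though 3 of its 5 other probe sets did, at 0.25 to 0.30, and with the poly(A) spikes it was at -0.24.

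Signalling members split, the tyrosine kinase PTK2 (focal adhesion kinase, FAK) rising and SRC and BCAR1 falling. PTK2 read 819.1 and 949.5 on the mimic arrays, against 544.7 and 522.8 on the miR-NC arrays. The change was 0.72 ± 0.07 (log2, SE, limma adjusted p = 1.04e-05), and it was at 0.38 and still passed with the poly(A) spikes. SRC, the kinase that docks on activated FAK, read 123.2 and 132.3 on the mimic arrays, against 166.3 and 164.1 on the miR-NC arrays. It fell by 0.37 ± 0.08 (limma adjusted p = 0.00327), and missed the threshold without mimic replicate 1 (-0.32).

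BCAR1 (p130Cas), a scaffold that FAK and SRC phosphorylate, read 192.3 and 192.2 on the mimic arrays, against 274.7 and 290.0 on the miR-NC arrays. It fell by 0.55 ± 0.07 (limma adjusted p = 7.79e-05), and its 4 other probe sets fell too. All 5 are marked as possibly cross-hybridizing, as are both SRC probe sets. NEDD9, a relative of BCAR1, was below the no-target controls on all arrays, between 7.63 and 10.1, and was not tested.

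PXN (paxillin), the scaffold that recruits FAK, had probe sets that went opposite ways. The brightest read 1253 and 1221 on the mimic arrays, against 1598 and 1735 on the miR-NC arrays, a change of -0.43 ± 0.05 (log2, SE, limma adjusted p = 5.40e-05). A second probe set held the same values on all 4 arrays and adds no evidence. A dim one, below the no-target controls on both mimic arrays, fell by 0.40 (adjusted p = 0.0325 over all probe sets, limma). Another, at 157 ± 3.71 in mimic cells and 132 ± 16.7 in miR-NC cells (SD, n = 2), rose by 0.26 (adjusted p = 0.0485 over all probe sets, limma). The direction of PXN is therefore uncertain: without possibly cross-hybridizing probe sets it was 0.26 higher in mimic cells.

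**Figure D3:**
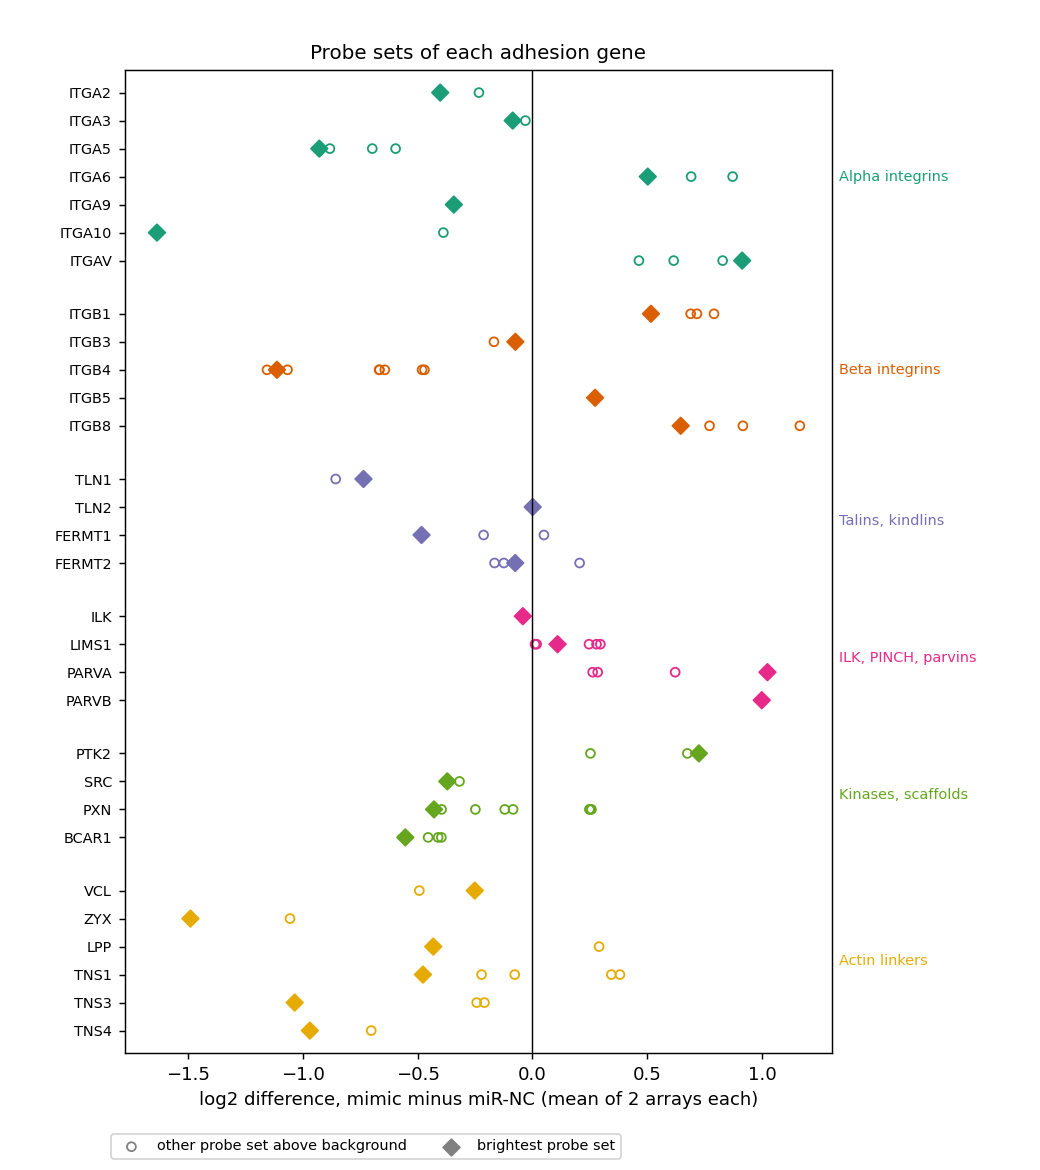
log2 difference (mimic minus miR-NC, means of 2 arrays each) of every probe set above the no-target controls on at least 1 array, with diamonds for the brightest probe set of a gene and circles for its others. Probe sets of ITGA5, ITGA6, ITGAV, ITGB1, ITGB4 and ITGB8 lie on 1 side of 0, while those of FERMT1, FERMT2, PXN, LPP and TNS1 lie on both sides.

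Vinculin, the zyxin family and the tensins, grouped here as actin linkers although the tensin TNS4 lacks the actin-binding part, were lower in mimic cells as read by the brightest probe set, 6 of 6, where 26.9% of all genes were lower. Their median log2 change was -0.72. VCL, ZYX and TNS4 each had another probe set that fell as well, the other probe sets of TNS3 did not pass, and LPP and TNS1 each had a probe set that rose. ZYX (zyxin), a LIM protein that gathers on strained actin fibres, read 135.0 and 143.0 on the mimic arrays, against 386.4 and 394.0 on the miR-NC arrays. It was 2.81-fold lower in mimic cells, at -1.49 ± 0.07 (log2 change with its SE, limma adjusted p = 6.71e-08), and its other probe set fell by 1.06.

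Tensins bind integrin tails, and all but TNS4 also bind actin. TNS3 read 1084 and 978.9 on the mimic arrays, against 2133 and 2090 on the miR-NC arrays, and fell by 1.04 ± 0.06 (limma adjusted p = 1.38e-07). Its other probe sets, which read 35 or less in both groups on average, were at -0.24 and -0.21 and did not pass. TNS4 read 457.3 and 398.9 on the mimic arrays, against 852.4 and 820.7 on the miR-NC arrays, falling by 0.97 ± 0.07 (limma adjusted p = 1.11e-06), and by 0.70 on its other probe set. Both were about 1/2 as bright in mimic cells.

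TNS1 was dim, at 41.4 and 35.4 on the mimic arrays, against 53.8 and 52.8 on the miR-NC arrays. The change was -0.48 ± 0.12 (limma adjusted p = 0.00642), ended without mimic replicate 2 (-0.36), and was 0.00 when all its probe sets were averaged, of which 1 rose by 0.38. VCL (vinculin), which reinforces the bond of talin to actin, read 1323 and 1366 on the mimic arrays, against 1538 and 1665 on the miR-NC arrays. The fall was the smallest of the 6, 0.25 ± 0.05 (limma adjusted p = 0.00223), and missed the threshold without mimic replicate 1 (-0.23); leaving out possibly cross-hybridizing probe sets left VCL with none above the no-target controls. LPP, a zyxin relative, read 212.3 and 218.7 on the mimic arrays, against 305.1 and 277.1 on the miR-NC arrays, a change of -0.43 ± 0.08 (limma adjusted p = 6.56e-04). Its second probe set rose by 0.29, and the mean of all stood at -0.04 and did not pass.

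The 250 bases before the start sites of the listed genes were searched on both strands for the CArG box, the site of serum response factor, and for GGAATG, a core bound by TEAD factors. RefSeq promoters (GRCh38.p14) were at hand for 25 of the 34 genes, 53 promoters in all, some of which overlap. The CArG box was in 2 of the 53 (3.77%), against 1.16% of 35116 promoters of all genes, and GGAATG in 9 (17%), against 11.9%. The genes with GGAATG were ITGA5, ITGA10, ITGB1, LPP, PXN, TNS1 and VCL. On the brightest probe set ITGB1 was higher in mimic cells and the others were lower, though LPP, PXN and TNS1 had other probe sets that rose. By gene, which does not allow for differing numbers of promoters, GGAATG was in 28% of the 25, against 14.3% of 27305 genes. The CArG box was in 8% of the 25, against 1.44%. The genes with it were LPP and ITGB6, and ITGB6 has no usable probe set and so no change to set beside it. Shown are the CArG match of LPP and the GGAATG match of an actin linker (VCL) and of a lower and a higher integrin subunit (ITGA5 and ITGB1), with 30 bases on either side, 5′ to 3′ along the gene and the match in capitals. LPP is at chr3:188212499-188212568 (plus strand), VCL at chr10:73997915-73997980 (plus strand), ITGA5 at chr12:54419313-54419378 (minus strand) and ITGB1 at chr10:32958377-32958442 (minus strand).
LPP, CArG box: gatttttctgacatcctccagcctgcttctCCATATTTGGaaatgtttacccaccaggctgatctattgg
VCL, GGAATG: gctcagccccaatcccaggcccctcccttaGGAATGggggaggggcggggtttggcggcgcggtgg
ITGA5, GGAATG: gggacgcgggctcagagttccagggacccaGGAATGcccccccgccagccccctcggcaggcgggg
ITGB1, GGAATG: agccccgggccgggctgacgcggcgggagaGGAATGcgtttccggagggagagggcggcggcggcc
A match is a run of letters and not evidence that the factor binds there.

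Other genes of the pathway, in lists chosen for their role, changed about as often as genes in general: 35 of the 64 tested passed, 14 higher and 21 lower (54.7%, beside 55.0% of all genes). Of 7 other integrin subunits tested, 0 passed in the limma fit, and 2 (ITGA2B at -0.33, and ITGA11, which was below the no-target controls on both mimic arrays) had an unadjusted p under 0.05; these were named after their values were seen. Of 9 integrin regulators 3 were higher and 2 lower, close to the 28.1% and 26.9% of all genes. KANK2, a talin-binding protein at the adhesion rim, read 206.9 and 184.8 on the mimic arrays, against 639.2 and 591.6 on the miR-NC arrays, a change of -1.65 ± 0.08 (log2, SE, limma adjusted p = 4.85e-08). SHARPIN, which holds integrins inactive, was at -1.64 ± 0.09, while RAP1B, a small GTPase that recruits talin, rose by 0.74 ± 0.06 and ITGB1BP1, which competes with talin for the ITGB1 tail, by 0.59 ± 0.06.

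Of 15 further scaffold and signalling genes 3 rose and 6 fell (9 in all, near the 55.0% of all genes). ARHGEF7, an exchange factor for Rac, fell by 1.04 ± 0.06 (log2, SE), the paxillin relative TGFB1I1 by 0.88 ± 0.10 and the adaptor CRKL by 0.65 ± 0.09, and DOCK1, an exchange factor downstream of BCAR1, rose by 0.63 ± 0.13. Among 18 other actin linkers 10 fell and 2 rose. PDLIM5 read 234.1 and 212.3 on the mimic arrays, against 552.1 and 567.0 on the miR-NC arrays, a change of -1.33 ± 0.07, and FBLIM1 (migfilin) was at -0.69 ± 0.06. The 2 that rose were ENAH, an actin polymerase, at 0.85 ± 0.08, and the crosslinker ACTN1 at 0.58 ± 0.05. The 10 lower of 18 and the 6 lower of 6 above are separate genes read against the same 26.9%.

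Hemidesmosome partners moved little beside ITGB4. CD151, a tetraspanin bound to laminin receptors, fell by 0.30 ± 0.05 and DST, the gene of the plakin BPAG1, by 0.20 ± 0.06 (log2, SE), while the linker plectin (PLEC) was at 0.13 ± 0.06 and did not pass. Of 12 integrin ligands 6 rose and 1 fell, and these 7 (58.3%) are a share near the 55.0% of all genes that passed (28.1% higher, 26.9% lower). FBN1 (fibrillin) and THBS1 (thrombospondin) rose by 0.99 ± 0.13 and 0.89 ± 0.08, and FN1, the fibronectin that ITGA5 and ITGAV receptors bind, by 0.37 ± 0.05. FBN1 was dim, at 19.9 and 18.1 on the miR-NC arrays, little above the no-target controls. CCN1, a matrix protein that also binds integrins, fell by 0.67 ± 0.06.

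**Figure D4:**
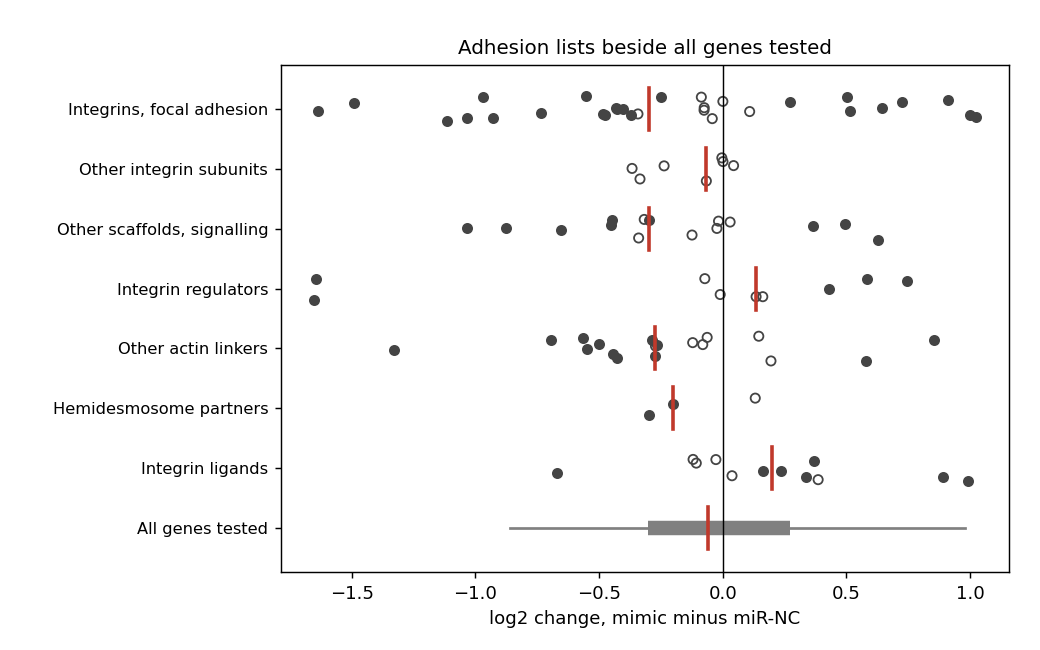
log2 change (mimic minus miR-NC) of tested genes of the adhesion lists, 1 point per gene, filled for a limma adjusted p under 0.05, with the list median as a red line. The bottom row shows all 14122 genes tested, the thick bar from the 25th to the 75th percentile (-0.30 to 0.27) and the thin line from the 5th to the 95th (-0.86 to 0.98).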

How the data were processed

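The deposited intensity values were used. Per the submitters' processing notes the authors used RMA, whose output is normally log2; the deposited intensity values ran from 2.09 to 17329, so they were read as linear RMA output and their log2 was taken with no pseudocount. RMA brings the arrays to 1 distribution, so a change of all transcripts in 1 direction cannot be seen. Floors or filters before deposit are not given in the sources used here. Gene symbols came from the platform annotation (44988 with 1 symbol, 1832 with several, 2473 with none, 102 controls). Each gene took the probe set with the highest mean log2 over the 4 arrays, and genes above the 30th percentile of probe sets (intensity 12.0) were tested with limma 3.58.1 in R 4.3.3 (lmFit, eBayes with a mean-variance trend, Benjamini-Hochberg over 14122 genes, threshold 0.05, two-sided). The fit had 2 residual and 8.35 prior degrees of freedom. Groups and replicate numbers came from the titles. Probe sets of a gene were also fitted one by one, adjusted over all probe sets tested. On simulated data with 14122 genes, the share of altered genes recovered was 26% at 1.25-fold, 76% at 1.5-fold, 98% at 2-fold and 100% at 4-fold. Only 50 genes were altered at each fold, and 8 of 158 calls were false. In the data 55.0% of genes passed, so these shares do not give the sensitivity of the real comparison. Intervals are 95%, from the moderated fit.

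The members and lists were chosen with earlier results of these data known. Every member is named, and of each further list up to 4 changed genes with the largest change whose arrays do not overlap, besides PLEC, ITGA11, ITGA2B and the markers, named after their values were seen. One added alternative, using only probe sets above background on all arrays, was chosen after seeing the data, as were the motifs. ITGB6 had no probe set with 1 symbol. ITGB3 shows the same value on both miR-NC arrays, as deposited.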

Additional observations from a re-analysis of the deposited data

How the results depend on the processing

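Over 18 other settings, the count of genes of the group that changed stayed between 20 and 25 (23 as reported), and the total over the further adhesion lists between 30 and 44 (35 as reported); single lists were not recounted. Of 529 values of single genes under another setting, 499 kept their direction and side of the threshold, 10 lost the threshold, 9 gained it and 11 changed sign. Set to the poly(A) spikes, which shifts all genes alike and keeps the group 0.24 below the median gene, 5 genes of the group were higher and 20 lower, their median was -0.64, and 1613 of all genes were higher and 8200 lower (16.4% of calls higher, against 51.1%), while ITGB5 stood at -0.073, TLN2 at -0.35 and LIMS1 at -0.24. ITGA3 (-0.43), ITGA9 (-0.69), FERMT2 (-0.42), ILK (-0.39) and LIMS1 passed as lower in that fit, which took its spread from the trend alone. The median of the group was -0.21 with no filter, -0.37 with genes above the 50th percentile, -0.041 when all probe sets were averaged and -0.086 without possibly cross-hybridizing ones, which put it at 0.0084 and -0.023 relative to the median gene. Other changes of sign were ILK at 0.010 (hybridization spikes), TNS1 at 0.0020 (all probe sets averaged), and FERMT1 at 0.050 and PXN at 0.26 (without cross-hybridizing probe sets). With single arrays left out, ITGB3 ranged from -0.16 to 0.0078 (positive without mimic replicate 1), TLN2 from -0.013 to 0.015 (negative without mimic replicate 2 and without miR-NC replicate 2) and ILK from -0.11 to 0.025 (positive without miR-NC replicate 2). The same gave medians of the group from -0.32 to -0.23 (-0.23 without mimic replicate 1) and 2509 to 4041 lower genes overall (2509 without mimic replicate 2). The cause of each was not tested. With the replicate number as a block, 8 genes of the group were higher and 15 lower, as without it, and 42 of the further adhesion genes passed in place of 35. The labels give no pairing beyond the shared number, and deviations of same-numbered arrays correlated at 0.08. Signal over background limits ITGA9, ITGB3 and TLN2.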
